A study of Mus musculus with 7 samples.

Results

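Vitamin D receptor (VDR) peaks were examined around Trpm6, Trpm7 and Cnnm4, 3 genes whose products move magnesium across cell membranes. Every peak centred within 50 kb of one of the 3 gene bodies was taken. Overlapping peaks of different libraries were merged, which gave 45 regions of the 87029 in the whole series: 21 around Trpm6, 10 around Trpm7 and 14 around Cnnm4. The rule uses gene function and position. The peaks came from chromatin immunoprecipitation with sequencing (ChIP-seq) on epithelial cells released with EDTA from the duodenum and jejunum of wild-type mice on standard chow. One group of 3 libraries came from mice aged 8 weeks that had received 1,25(OH)2D3, which is vitamin D in its active, hormonal form, in a dose of 10 ng per g of weight 1 h before tissue was taken. The other group of 3 libraries came from mice of the same age given vehicle. A single input library, labelled with the hormone dose, served both groups and was not analysed here.

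VDR is a nuclear receptor that binds DNA as a partner of the retinoid X receptor, and its classical site is a DR3 element, a direct repeat of 2 half-sites of 6 bases with 3 bases between them. Trpm6 encodes a channel of the apical membrane, fused to a protein kinase domain, through which magnesium enters epithelial cells of gut and kidney. In humans its loss causes hypomagnesaemia with secondary hypocalcaemia. Trpm7 encodes a closely related channel kinase that nearly all cells make. Cnnm4 encodes a basolateral membrane protein that moves magnesium out of intestinal epithelial cells towards the blood in exchange for sodium. A VDR peak shows where the receptor was bound, and says nothing of the RNA of the gene or of which nearby gene the site serves.

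The 1,25(OH)2D3 libraries held 17152461 to 66524392 tags and 25510 to 41722 listed peaks, and the vehicle libraries 15991198 to 68560701 tags and 8756 to 48425 listed peaks. Replicate 3 was the deepest library of each group. Whether a library stands for 1 mouse is not in the labels, and the spread behind each p value may therefore be technical. The share of tags in peaks, as the authors' file headers give it, was 11.86% to 18.96% with 1,25(OH)2D3 and 2.58% to 8.10% with vehicle. This share thus separated the treatments, and within each group it rose with the number of listed peaks. Depth did not separate the treatments: vehicle replicate 1 had 19733260 tags, more than 1,25(OH)2D3 replicates 1 and 2, but the shortest list. Within each group the deepest library had the longest list. The part of the share and of the depth in the results below was not tested.

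Of the 45 regions, 4 were found in all 6 libraries (3 in Trpm6 and 1 in Cnnm4) and 2 were hormone-only, that is present in each of the 3 1,25(OH)2D3 libraries but in none given vehicle (1 upstream of Trpm6 and 1 in Cnnm4). Over the whole series, 4.99% of regions were in all 6 libraries and 5.39% were hormone-only, so both counts are near those shares. The reverse pattern, present in each vehicle library but in none given 1,25(OH)2D3, was found at no region of the 3 genes and at 0.0299% of all regions. A total of 27 regions were found in 1 library only, against 62.6% of all regions, and 24 of these 27 came from a replicate 3 library (16 with 1,25(OH)2D3 and 8 with vehicle). Replicate 3 had the longest list of each group, 41722 and 48425 peaks. The share of single-library regions that came from replicate 3 was not counted over the whole series, so whether 24 of 27 is usual is open. The 15 regions with a peak in at least 2 of 3 libraries of either treatment are described singly below.

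The sequences of the regions that recurred most regularly are given first, because they show how far each holds the receptor's element. All are from build mm9. Each line is the 201 bases centred on the region, and capitals mark the stretch closest to a DR3 element on either strand. The region upstream of Trpm6 is hormone-only, and the other Trpm6 regions are those in all 6 libraries:

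Trpm6 at -35.64 kb, chr19:18788736-18788936, plus strand: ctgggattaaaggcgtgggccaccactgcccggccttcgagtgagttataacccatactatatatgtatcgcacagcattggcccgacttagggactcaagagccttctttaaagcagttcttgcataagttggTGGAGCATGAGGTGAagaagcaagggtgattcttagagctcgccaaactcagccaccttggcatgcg

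Trpm6 at 23.17 kb, chr19:18847543-18847743, plus strand: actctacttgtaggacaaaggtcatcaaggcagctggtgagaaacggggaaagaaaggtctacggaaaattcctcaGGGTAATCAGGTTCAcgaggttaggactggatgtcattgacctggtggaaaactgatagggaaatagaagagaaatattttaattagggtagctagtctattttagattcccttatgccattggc

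Trpm6 at 74.88 kb, chr19:18899256-18899456, plus strand: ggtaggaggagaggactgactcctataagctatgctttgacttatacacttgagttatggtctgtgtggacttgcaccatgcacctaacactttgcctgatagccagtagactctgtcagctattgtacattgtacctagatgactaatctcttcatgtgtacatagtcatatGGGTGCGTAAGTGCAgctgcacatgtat

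Trpm6 at 140.56 kb, chr19:18964935-18965135, plus strand: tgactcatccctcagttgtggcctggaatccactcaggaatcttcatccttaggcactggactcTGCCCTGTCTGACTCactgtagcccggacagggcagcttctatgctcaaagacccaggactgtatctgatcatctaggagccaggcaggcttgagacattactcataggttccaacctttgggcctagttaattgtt

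Mismatches were counted against a degenerate DR3 whose half-sites read A or G, then G, then G or T, then T, then C or G, then A, with any base in the spacer. The closest DR3 match in the region at 23.17 kb has 1 mismatch and lies 17 bp from the region's centre. In the regions at 74.88 and 140.56 kb the closest match has 2 mismatches, and in the hormone-only region upstream it has 3. For Cnnm4, the first line is the hormone-only region and the second the region in all 6 libraries:

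Cnnm4 at 13.54 kb, chr1:36541887-36542087, plus strand: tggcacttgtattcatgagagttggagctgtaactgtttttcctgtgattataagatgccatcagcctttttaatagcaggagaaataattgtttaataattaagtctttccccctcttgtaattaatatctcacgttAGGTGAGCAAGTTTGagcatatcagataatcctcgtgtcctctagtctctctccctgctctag

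Cnnm4 at 29.79 kb, chr1:36558136-36558336, plus strand: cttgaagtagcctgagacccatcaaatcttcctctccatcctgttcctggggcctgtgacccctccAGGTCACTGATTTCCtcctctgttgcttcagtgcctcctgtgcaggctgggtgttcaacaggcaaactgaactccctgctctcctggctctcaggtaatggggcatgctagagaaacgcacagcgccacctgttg

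Both Cnnm4 regions have a closest match with 2 mismatches, and the region at 29.79 kb also carries AGGTCA, one form of the half-site, as part of it. The printed Trpm6 region at 23.17 kb holds AGGTCA too, outside its marked match. For Trpm7, whose main region lies across the start of the gene, the bases of the region before that start are given. Capitals here mark the palindrome CACGTG, the E-box bound by bHLH transcription factors, a motif chosen after the sequence was seen:

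Trpm7 promoter, chr2:126701967-126702125, plus strand: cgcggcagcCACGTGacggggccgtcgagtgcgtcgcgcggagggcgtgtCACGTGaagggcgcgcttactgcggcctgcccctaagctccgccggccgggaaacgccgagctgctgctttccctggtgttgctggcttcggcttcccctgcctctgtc

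This stretch of 159 bases is 71.1% G and C and holds 2 E-boxes. The closest DR3 match of the Trpm7 region has 2 mismatches, at -36 bp from the region's centre. It lies inside the gene, among bases not printed here. Of all merged regions, 0.132% hold 2 or more E-boxes within 100 bp of their centre and 3.16% hold at least 1. Of regions within 1 kb of an annotated start, the shares are 0.262% and 4.80%. Outside Trpm7, 2 of the other 44 regions hold an E-box, both of them single-library regions of Trpm6.

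Trpm6 (ENSMUSG00000024727.8) had more peaks on average with 1,25(OH)2D3 than with vehicle, and the libraries of the treatments met without separating. The gene occupies chromosome 19 from 18824473 to 18967000 on the plus strand, 143 kb with 39 exons. It had 9, 10 and 14 peaks in 1,25(OH)2D3 replicates 1, 2 and 3, and 3, 6 and 9 in vehicle replicates 1, 2 and 3. Every 1,25(OH)2D3 library was at or above the highest vehicle library, and the groups met at 9 peaks. The means were 11.0 ± 2.65 with 1,25(OH)2D3 and 6.0 ± 3.0 with vehicle (SD, n = 3 each), a difference of 5.0 peaks (exact permutation p = 0.2, two-sided; 0.749 after Benjamini-Hochberg adjustment over 20254 genes). With 3 libraries a group, 0.1 is the smallest p this test can give, so no gene could pass 0.05 before or after adjustment, and 0 did. Every 1,25(OH)2D3 library was above every vehicle library at none of Trpm6, Trpm7 and Cnnm4, against 17.7% of all genes, and below every one at none, against 0.0494%. Within the shallow libraries of replicates 1 and 2, both 1,25(OH)2D3 libraries were above both vehicle libraries at Trpm6 and Cnnm4 but not at Trpm7, against 47.9% of all genes.

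Relative to the length of the peak lists, Trpm6 had about as many peaks with either treatment. Per 10000 peaks listed by a library, Trpm6 had 3.53, 3.29 and 3.36 in the 1,25(OH)2D3 libraries and 3.43, 4.03 and 1.86 in the vehicle libraries. The groups overlapped, with means of 3.39 ± 0.123 with 1,25(OH)2D3 and 3.10 ± 1.12 with vehicle (SD, n = 3 each; exact permutation p = 0.9). When each list was cut to the length of the shortest, the difference turned to -1.0 (exact permutation p = 0.7). The means were then 2.67 peaks with 1,25(OH)2D3 and 3.67 with vehicle.

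The Trpm6 region placed highest in each 1,25(OH)2D3 list lay in intron 2, 23.17 kb downstream of the start (18847465 to 18847822), and had a peak in all 6 libraries. The peaks' list percentile, a position in the library's list with 100 for its first peak and not a measured occupancy, was 94.5, 93.2 and 95.1 in the 1,25(OH)2D3 libraries and 60.4, 57.5 and 95.3 in the vehicle libraries. The peak thus stood among the first of all peaks in every 1,25(OH)2D3 list and in that of vehicle replicate 3. In the lists of vehicle replicates 1 and 2 it stood in the middle. Those lists were the shortest, at 8756 and 14888 peaks. A percentile depends on list length, and the part of length in this contrast was not tested. The centres of the 6 peaks lay within 86 bp of each other, against a median of 94 bp over all 4345 regions found in all 6 libraries.

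Further along Trpm6, 3 regions stood close together. The region at 70.18 kb, in intron 18 (18894449 to 18894849), was in all 3 1,25(OH)2D3 libraries and in vehicle replicates 2 and 3. The region at 74.88 kb, in intron 19 (18899137 to 18899575), was in all 6 libraries, at percentiles of 41.4 to 81.7 with 1,25(OH)2D3 and 57.5 to 85.3 with vehicle. The region at 76.18 kb, in intron 20 (18900432 to 18900875), was in 1,25(OH)2D3 replicates 2 and 3 and in vehicle replicate 3. The closest DR3 had 4 mismatches in the first and the last of these 3.

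Near the end of Trpm6, intron 38 held a region in all 6 libraries at 140.56 kb (18964835 to 18965235), at percentiles of 56.3 to 85.6 with 1,25(OH)2D3 and 68.2 to 91.1 with vehicle. A second region of the same intron, at 141.35 kb (18965677 to 18965978), was in 1,25(OH)2D3 replicates 1 and 2 only, at 25.9 and 24.2, with a DR3 of 2 mismatches 2 bp from its centre. Beyond the gene, a region 155.77 kb from the start (18980082 to 18980402), between genes, was in all 3 1,25(OH)2D3 libraries and in vehicle replicate 2.

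The hormone-only region of Trpm6 lay 35.64 kb upstream (18788657 to 18789015), in an intron of the neighbouring gene D030056L22Rik and 1.15 kb from that gene's start. Its peaks stood low in the lists, at 25.9, 32.7 and 38.7 in 1,25(OH)2D3 replicates 1, 2 and 3. No region was centred within 1 kb of the annotated start of Trpm6 in any library, and the region nearest to that start was at 11.78 kb, in 1,25(OH)2D3 replicate 3 only. Of the 21 regions, 11 were in introns of Trpm6, 7 had the start of another gene nearer than that of Trpm6, and 10 were in 1 library only.

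**Figure D1:**
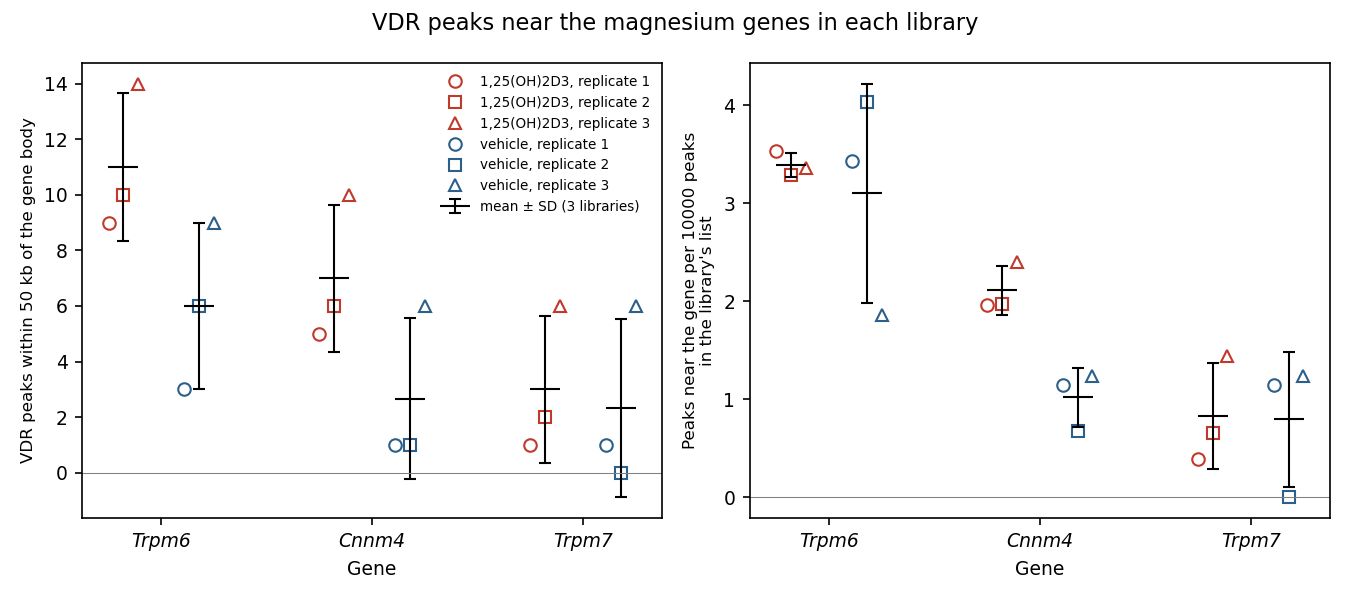
Left, number of VDR peaks within 50 kb of each gene body in each library; right, the same per 10000 peaks in that library's list. Open symbols are libraries (replicates 1 to 3 by shape), bars are mean ± SD over 3 libraries, with 1,25(OH)2D3 left of vehicle. In raw numbers, with 1,25(OH)2D3 and then vehicle, Trpm6 averages 11.0 and 6.0 peaks, Cnnm4 7.0 and 2.67 and Trpm7 3.00 and 2.33; per 10000 listed, the libraries of the 2 treatments do not overlap for Cnnm4 and overlap for Trpm6 and Trpm7.

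**Figure D2:**
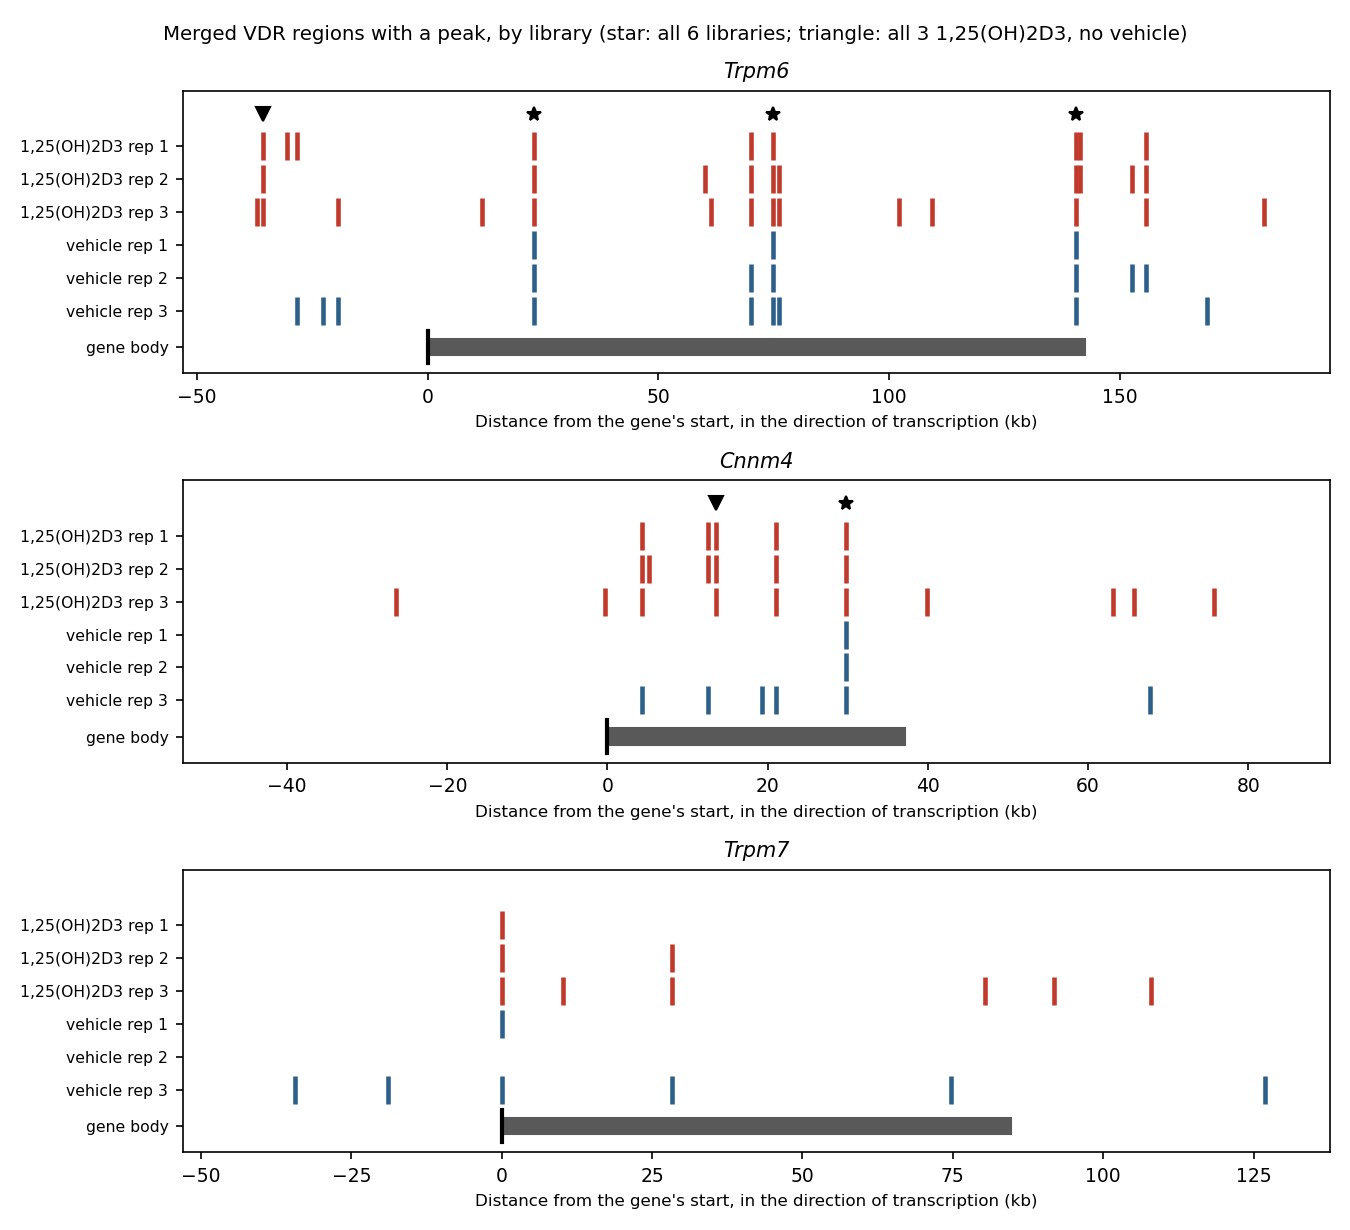
Merged VDR regions with a peak in each library (rows, 1,25(OH)2D3 in red above vehicle in blue) by distance in kb from the gene's start, in the direction of transcription, with the gene body in grey. Stars mark the 4 regions in all 6 libraries and triangles the 2 hormone-only regions; the replicate 3 rows hold most of the marks that stand alone.

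Trpm7 (ENSMUSG00000027365.8), on chromosome 2 from 126617301 to 126701966 on the minus strand, had few peaks outside the replicate 3 libraries. It had 1, 2 and 6 peaks in 1,25(OH)2D3 replicates 1, 2 and 3, and 1, 0 and 6 in vehicle replicates 1, 2 and 3. The groups overlapped fully, and both replicate 3 libraries were highest with the same number. The means were 3.00 ± 2.65 with 1,25(OH)2D3 and 2.33 ± 3.21 with vehicle (SD, n = 3 each), a difference of 0.667 (exact permutation p = 0.8; adjusted over all genes, 1.00). The difference was -0.833 without 1,25(OH)2D3 replicate 3 and -0.50 without vehicle replicate 2, so the direction rests on single libraries.

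The region at the Trpm7 start spanned 126701773 to 126702125 and was centred 17 bp inside the gene, in the untranslated part of exon 1. It had a peak in all 3 1,25(OH)2D3 libraries and in vehicle replicates 1 and 3. The list percentiles were 85.5, 91.4 and 97.3 in 1,25(OH)2D3 replicates 1, 2 and 3, and 87.4 and 96.8 in vehicle replicates 1 and 3. The peak thus stood high in each list that held it, whichever the treatment. Of 22367 protein-coding genes, 9.51% had a region in all 3 1,25(OH)2D3 libraries within 1 kb of their start. The other region of Trpm7 with a peak in more than 1 library of a treatment was in intron 6, 28.26 kb downstream (126673522 to 126673896), at percentiles of 21.8 and 30.3 in 1,25(OH)2D3 replicates 2 and 3 and 36.6 in vehicle replicate 3. The remaining 8 regions were each in 1 library, 4 in 1,25(OH)2D3 replicate 3 and 4 in vehicle replicate 3. For 6 of the 10 regions the nearest start belonged to Usp50 or 2010106G01Rik.

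Cnnm4 (ENSMUSG00000037408.8) had peaks in its first intron with 1,25(OH)2D3 that were in neither shallow vehicle library, those of replicates 1 and 2. The gene spans chromosome 1 from 36528442 to 36565621 on the plus strand, 37.2 kb with 7 exons. It had 5, 6 and 10 peaks in 1,25(OH)2D3 replicates 1, 2 and 3, and 1, 1 and 6 in vehicle replicates 1, 2 and 3. The 2 shallow vehicle libraries were below every 1,25(OH)2D3 library, while vehicle replicate 3 matched 1,25(OH)2D3 replicate 2. The means were 7.0 ± 2.65 with 1,25(OH)2D3 and 2.67 ± 2.89 with vehicle (SD, n = 3 each), a difference of 4.33 (exact permutation p = 0.3; adjusted over all genes, 0.804).

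Relative to list length, the Cnnm4 libraries of the treatments did not overlap. Per 10000 listed peaks it had 1.96, 1.97 and 2.40 in the 1,25(OH)2D3 libraries and 1.14, 0.672 and 1.24 in the vehicle libraries, so each 1,25(OH)2D3 library was above each vehicle library. The means were 2.11 ± 0.248 with 1,25(OH)2D3 and 1.02 ± 0.303 with vehicle (SD, n = 3 each; exact permutation p = 0.1, the smallest possible). The same separation was found at 11.1% of all genes with a peak and the opposite one at 1.81%; whether Cnnm4 differs in this from Trpm6 or Trpm7 was not tested. The counts behind it are small: the exact 95% interval, which covers counting error only, was 1.15 to 4.41 in 1,25(OH)2D3 replicate 3 and 0.455 to 2.70 in vehicle replicate 3. In 1,25(OH)2D3 replicates 1 and 2 it was 0.636 to 4.57 and 0.725 to 4.3. In vehicle replicates 1 and 2, with 1 peak each, it was 0.0289 to 6.36 and 0.017 to 3.74. Both of these vehicle intervals cover every 1,25(OH)2D3 value. With lists of equal length the difference in peak number turned to -0.667 (exact permutation p = 0.7). The means were then 1.00 peak with 1,25(OH)2D3 and 1.67 with vehicle.

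The region of Cnnm4 in all 6 libraries was in intron 5, 29.79 kb downstream of the start (36558035 to 36558438). Its list percentiles were 77.0, 67.9 and 82.3 in 1,25(OH)2D3 replicates 1, 2 and 3, and 68.2, 51.8 and 94.5 in vehicle replicates 1, 2 and 3. It was the sole Cnnm4 region with a peak in vehicle replicates 1 and 2. The start of Cnnm3, the next gene on the chromosome and a relative of Cnnm4, was closer to it than that of Cnnm4, at 10.5 kb.

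In intron 1 of Cnnm4, the hormone-only region lay 13.54 kb downstream of the start (36541826 to 36542148), at percentiles of 32.4, 48.0 and 66.3 in 1,25(OH)2D3 replicates 1, 2 and 3. Beside it, a region at 12.54 kb (36540753 to 36541211) was in 1,25(OH)2D3 replicates 1 and 2 and in vehicle replicate 3. The regions at 4.26 kb (36532505 to 36532902) and 21.05 kb (36549199 to 36549795) were both in all 3 1,25(OH)2D3 libraries and in vehicle replicate 3. Vehicle replicate 3 was the sole vehicle library with a peak at these 3 sites, at percentiles of 82.5, 88.9 and 80.1. The region 333 bp upstream of the Cnnm4 start was in 1,25(OH)2D3 replicate 3 only.

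Without vehicle replicate 3, the number of hormone-only regions around the 3 genes was 4, of which 3 were at Cnnm4 and 1 at Trpm6. Over all regions the share of hormone-only regions was then 8.69%. Among the shallow libraries alone, 6 regions were in both 1,25(OH)2D3 libraries and neither vehicle library, 4 at Cnnm4 and 2 at Trpm6, against 9.90% of all regions. Between the deep libraries, 19 of the 45 regions were only in 1,25(OH)2D3 replicate 3, against 31.0% of all regions, and 10 were only in vehicle replicate 3, against 38.7%. A further 11 were in both, against 17.0%.

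**Figure D3:**
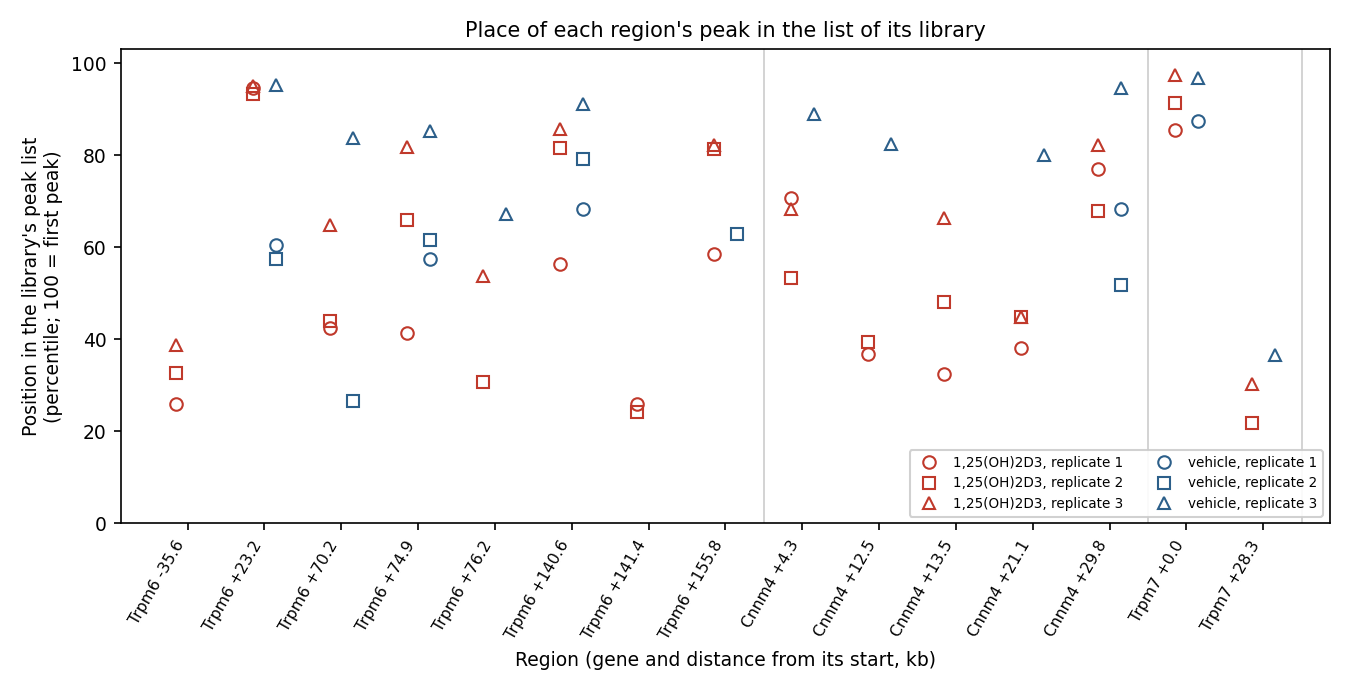
Position of each region's peak in the list of its library (percentile, 100 for the first peak) for the 15 regions with a peak in at least 2 of 3 libraries of either treatment; red symbols are 1,25(OH)2D3 libraries and blue symbols, to their right, vehicle libraries. In the 1,25(OH)2D3 lists the Trpm7 start and the Trpm6 region at 23.17 kb stand highest, and the hormone-only regions at -35.64 kb of Trpm6 and 13.54 kb of Cnnm4 lie at 25.9 to 38.7 and 32.4 to 66.3.

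Compared per 100 kb of the window searched, Trpm6 and Cnnm4 had similar densities of peaks and Trpm7 the lowest. With 1,25(OH)2D3 the densities were 5.10 ± 1.93 peaks per 100 kb for Cnnm4, 4.54 ± 1.09 for Trpm6 and 1.62 ± 1.43 for Trpm7, and with vehicle 1.94 ± 2.10, 2.47 ± 1.24 and 1.26 ± 1.74 (SD, n = 3 libraries). Cnnm4 was above Trpm6 in 1,25(OH)2D3 replicates 2 and 3 and vehicle replicate 3, and below it in the other libraries, so the order of these neighbours lies within their spread. All 1,25(OH)2D3 libraries were higher for Trpm6, at 3.71 to 5.77, than for Trpm7, at 0.542 to 3.25. The median gene had 2.11 peaks per 100 kb with 1,25(OH)2D3 and 1.26 with vehicle. Slc30a10, the gene of a manganese exporter, had 12.6 ± 0.507 with 1,25(OH)2D3 and 9.36 ± 3.55 with vehicle, and Trpv6, the gene of the apical calcium channel, 2.88 ± 1.32 with 1,25(OH)2D3 and 1.15 ± 0.499 with vehicle. The density at the apical magnesium channel thus lay between those at the manganese exporter and the calcium channel with either treatment, and the ranges over 1,25(OH)2D3 libraries of Trpm6 and Trpv6 overlapped (3.71 to 5.77 and 1.73 to 4.32).

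A DR3 element with at most 2 mismatches lay within 100 bp of the centre in 22 of the 45 regions, against 46% of all regions. Windows 5 kb to the right of all regions held one at 34.4%. No region of the 3 genes held a DR3 without a mismatch, against 1.64% of all regions and 5.80% of regions in all 6 libraries, and 3 held one with 1 mismatch. These were the Trpm6 region in all 6 libraries at 23.17 kb and 2 regions found in 1,25(OH)2D3 replicate 3 only, near Usp50 in the Trpm7 window and near Ankrd23 in the Cnnm4 window. Other motifs were searched without mismatches on both strands in the same windows. AGGTCA, one form of the DR3 half-site that can therefore overlap a DR3, was in 10 of 45 regions against 21.7% of all regions. AGATAA of GATA factors was in 7 against 18.4%, TGANTCA of AP-1 in 5 against 10.9%, TTTATNG of CDX factors in 4 against 14.0% and CAAAGTCCA of HNF4 in 2 against 1.56%. Both HNF4 matches were in single-library regions of the Trpm7 window, at 10.21 and 91.83 kb. By location, 27 of the 45 centres were in introns of any gene, 8 within 1 kb of an annotated start, 2 in exons and 8 between genes, against 42.1%, 11.4%, 2.80% and 43.7% of all regions. The regions were chosen by nearness to gene bodies, which fill 143 of 243 kb for Trpm6, 84.7 of 185 for Trpm7 and 37.2 of 137 for Cnnm4. That rule favours introns over stretches between genes, so nothing is concluded from these shares.

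**Figure D4:**
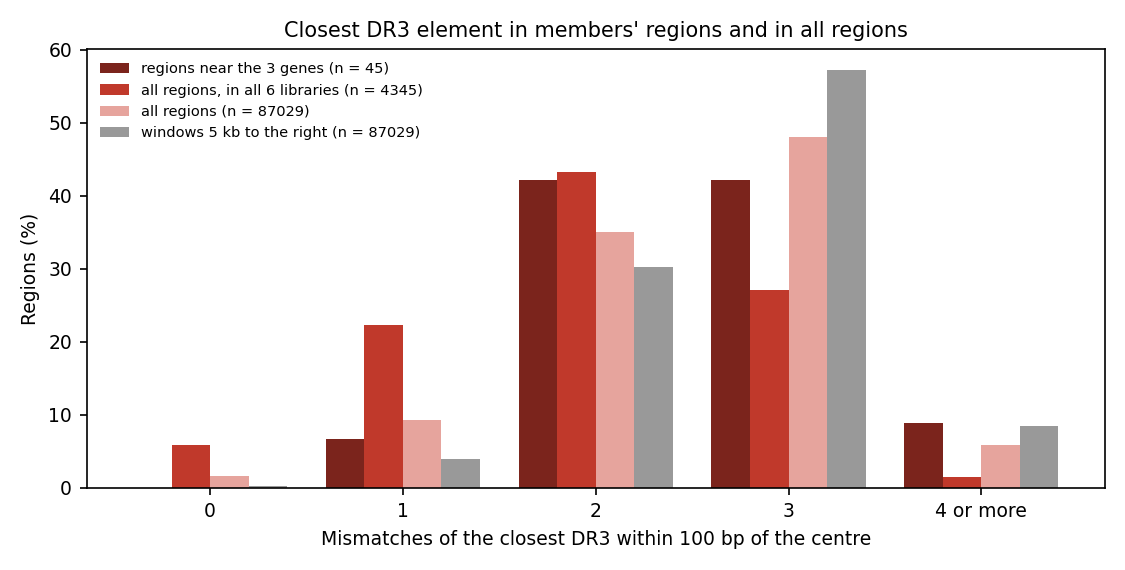
Share of regions (y axis, percent) by the number of mismatches of the closest DR3 within 100 bp of the centre (x axis), for the 45 regions near the 3 genes, all regions in all 6 libraries, all merged regions and windows 5 kb to the right. The 45 regions hold none without a mismatch, 6.67% with 1 and 42.2% with 2. The shares with 1 and with 2 are 22.3% and 43.2% for the regions in all 6 libraries. They are 9.3% and 35.1% for all regions, and 3.94% and 30.2% for the windows.

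Among 19 other genes of magnesium transport, mean peak number was higher with 1,25(OH)2D3 at 15 and lower at 4, against 70.2% and 22.5% of all genes with a peak. Every 1,25(OH)2D3 library was above every vehicle library at 5 of them (Nipa2, Nipal1, Nipal3, Slc41a3 and Mmgt2), against the 17.7% of all genes given above. Per 10000 listed peaks, the groups overlapped at all 5. Means by that measure were lower with 1,25(OH)2D3 at Mmgt2 (2.29 and 2.69 with vehicle) and Nipa2 (1.79 and 2.31), and higher at Nipal1, Nipal3 and Slc41a3. The groups separated per 10000 at Cnnm2, Cnnm3, Mrs2 and Mmgt1, each with 1,25(OH)2D3 higher, against 11.1% of all genes. The median difference over the list was 2.00 peaks, against 1.00 over all genes. The 4 with the most peaks with 1,25(OH)2D3 were Cnnm2, Slc41a2, Mmgt2 and Cnnm3. Cnnm2, which takes part in magnesium handling by the kidney, had 6, 8 and 13 peaks with 1,25(OH)2D3 and 1, 3 and 6 with vehicle, and the groups met at 6. Slc41a2, a member of a family of magnesium carriers, had 6, 5 and 12 with 1,25(OH)2D3 and 2, 2 and 7 with vehicle, with overlap. Mmgt2, named as a membrane magnesium transporter, had 8, 7 and 6 with 1,25(OH)2D3 and 4 in each vehicle library, without overlap. Cnnm3 had 5, 7 and 9 with 1,25(OH)2D3 and 1, 1 and 6 with vehicle, but 13 of the 14 Cnnm4 regions also lie in its window, so its values repeat those of Cnnm4.

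Of 9 regulators and partners of magnesium transport, the groups did not overlap at 2, each time with 1,25(OH)2D3 higher, against 17.7% of all genes, and the median difference was 1.67 peaks, against 1.0 over all genes. Mean peak number was higher with 1,25(OH)2D3 at 8 of the 9, against 70.2% of all genes, and equal at 1. Pcbd1, whose product is a transcriptional coactivator, had 8, 9 and 8 with 1,25(OH)2D3 and 3, 1 and 3 with vehicle. Ptp4a3, which encodes a phosphatase of a family that binds CNNM proteins, was the other gene, with 1, 2 and 2 peaks with 1,25(OH)2D3 and none with vehicle. Ptp4a2 of the same family had 5, 10 and 11 with 1,25(OH)2D3 and 1, 2 and 9 with vehicle, and Arl15, a small GTPase, 3, 6 and 9 with 1,25(OH)2D3 and 1, 2 and 11 with vehicle, both with overlap. Per 10000 listed peaks the groups overlapped at Pcbd1, at 3.14, 2.96 and 1.92 with 1,25(OH)2D3 and 3.43, 0.672 and 0.62 with vehicle. They did not overlap by that measure at Ptp4a3 and Ptp4a2, each with 1,25(OH)2D3 higher, against 11.1% of all genes.

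Of the 6 other Trpm genes, Trpm2, Trpm5 and Trpm8 had more peaks in every 1,25(OH)2D3 library than in any vehicle library, against 17.7% of all genes. Mean peak number was higher with 1,25(OH)2D3 at 4 of the 6 and lower at Trpm1 and Trpm3, against 70.2% and 22.5% of all genes. Trpm5, the taste and tuft cell channel, had 4, 6 and 5 with 1,25(OH)2D3 and 1, 1 and 3 with vehicle, and Trpm8, the cold sensor, 3, 4 and 5 with 1,25(OH)2D3 and 1, 2 and 2 with vehicle. Trpm2, an oxidant-sensitive channel, had 2, 3 and 3 with 1,25(OH)2D3 and 0, 1 and 1 with vehicle. Trpm4, a sodium-conducting channel opened by calcium, had 1, 3 and 7 with 1,25(OH)2D3 and 1, 2 and 2 with vehicle, with overlap. Trpm3 and Trpm1 are named after their values were seen. Trpm3 had 3, 2 and 2 with 1,25(OH)2D3 and 4, 3 and 7 with vehicle, and Trpm1 had 0, 0 and 2 with 1,25(OH)2D3 and 0, 0 and 4 with vehicle, both with overlap. Per 10000 listed peaks, Trpm3 had 1.18, 0.658 and 0.479 with 1,25(OH)2D3 and 4.57, 2.02 and 1.45 with vehicle (exact permutation p = 0.1). Such a separation, with 1,25(OH)2D3 lower, was found at 1.81% of all genes. By the same measure Trpm2 and Trpm5 stayed separate with 1,25(OH)2D3 higher, against 11.1% of all genes, and Trpm8 overlapped. No gene of these lists lacked peaks in all 6 libraries.

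**Figure D5:**
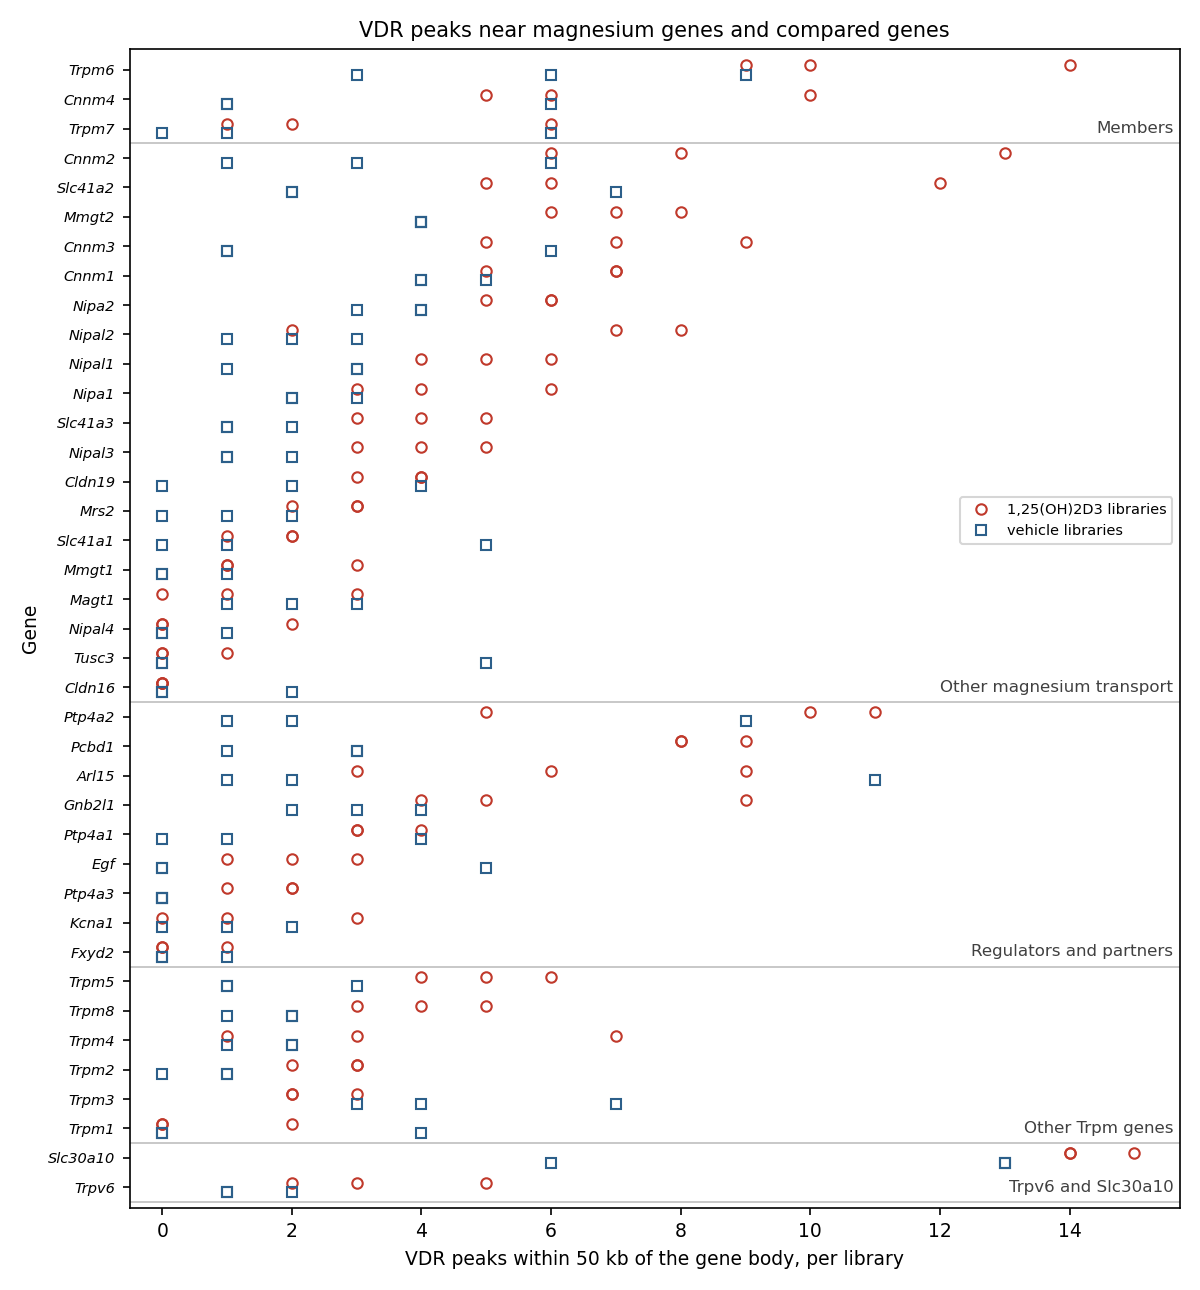
Number of VDR peaks within 50 kb of the gene body (x axis) in each library for the 3 members, the lists of other magnesium genes, regulators and Trpm genes, and Trpv6 and Slc30a10; red circles are 1,25(OH)2D3 libraries and blue squares, drawn below them, vehicle libraries. Pcbd1 and Mmgt2 have all 1,25(OH)2D3 libraries right of all vehicle libraries, while Trpm6 and Cnnm2 meet at 9 and 6 peaks. Per 10000 listed peaks, which are not drawn, the groups overlap at Pcbd1, Mmgt2 and Trpm6 but not at Cnnm2.

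The protein-coding genes with peak numbers most like those of a member over the 6 libraries were found by the sum of absolute differences. For Trpm6 the closest were Nsd1, Nrg4 and Disc1, each with a sum of 3, a value shared by 6 genes. For Trpm7 they were Gzma with a sum of 1, and D6Mm5e and Efcab7 with 2, a value shared by 8 genes. For Cnnm4 they were Ets2 with a sum of 1, and 0610007L01Rik with 2, a value shared by 5 genes. Ties were broken by the smallest difference in gene length. Ets2 had 5, 7 and 10 peaks in 1,25(OH)2D3 replicates 1, 2 and 3 and 1, 1 and 6 in vehicle replicates 1, 2 and 3. The points share the same 6 libraries and their list lengths, so likeness here is a description.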

How the data were processed

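Per the labels, VDR was immunoprecipitated from proximal intestinal epithelium, and per the submitters' processing notes reads were aligned to mm9 with Bowtie and peaks were called with HOMER (versions not given in the sources used here). Peak calling treated the libraries separately, with 1 input for all, per the file headers, which give a false discovery rate of 0.001, a minimum of 4-fold over input and over the surrounding 10 kb, a Poisson limit of 0.0001 and tag positions no more than 2-fold under the number of unique ones expected. The deposited files hold each peak's start and end. The deposited score is 1 for every peak, so comparisons rest on presence, and list order stands in for rank; what value the order follows is not given in the sources used here.

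Peaks on chromosomes 1 to 19, X and Y that overlapped by at least 1 bp were merged. Genes and sequence came from GENCODE mouse version M1 on NCBI build 37, the same assembly as mm9; chromosome ends were exceeded by 0 peaks. Exact permutation tests were run for all 20254 protein-coding genes with a peak, in Python 3.11.15 with numpy 2.4.6, scipy 1.17.1 and pandas 2.3.3, after tests on simulated data. The closest DR3 was searched on both strands. Regions with a peak in at least 2 of 3 libraries of either treatment are described singly. Genes named from each list are the 4 with the highest mean peak number with 1,25(OH)2D3, with genes whose groups do not overlap added after their values were seen. Like genes exclude those within 500 kb of the member. Some genes that these rules name are not reported here, for a reason unrelated to their values, and the regulators' counts cover 9 of the 10 genes listed. The members and lists were chosen with earlier results of these data known.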

Additional observations from a re-analysis of the deposited data

How the results depend on the processing

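Leaving out 1 library at a time, the difference in peak number ranged from 3.5 to 6.5 for Trpm6, -0.833 to 2.5 for Trpm7 and 2.83 to 6.0 for Cnnm4, the count of hormone-only regions from 2 to 4 and that of regions in all remaining libraries from 4 to 5. Over all regions the hormone-only share then ranged from 5.94% to 9.53%, and the share in all remaining libraries from 5.03% to 7.97%. With lists of equal length the differences were -1.0 for Trpm6 and -0.667 for Cnnm4 (exact permutation p = 0.7 for each). There were then 0 hormone-only regions and 1 region in all 6. With the upper 50% of each list there were 0 hormone-only regions, and the differences were 0.333 for Trpm6 and 1.0 for Cnnm4. The hormone-only count was 1 within 10 kb, 1 when the nearest start had to be the member's, 6 in the shallow libraries and 19 in the deep pair, where 11 regions were in both (over all regions, 31.0% and 17.0%). Shares over all regions were not counted for equal-length lists, the upper 50%, 10 kb or the nearest start. Whether the lower counts there are particular to the 3 genes was therefore not tested. The DR3 count was 3 with at most 1 mismatch and 10 within 50 bp of the centre (over all regions, 10.9% and 27.7%). The values per 10000 listed peaks and the region counts in the shallow and deep libraries were chosen after seeing the data. Same-numbered libraries deviated together weakly (correlations over genes of 0.0947, 0.116 and 0.141 for numbers 1, 2 and 3), each correlating best with its own number, but the labels give the number no meaning and not every value passed 0.1. With the replicate block, the sign-flip exact permutation p was 0.25 for Trpm6 (difference 5.0), 1.0 for Trpm7 (0.667) and 0.25 for Cnnm4 (4.33), with 0.25 the smallest 3 pairs can give. No tag counts per peak were used, so how strongly a region was bound was not measured.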

Other observations

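The Cnnm4 region at 21.05 kb was wider than the others described. The centres of its 4 peaks lay up to 313 bp apart, at -156, 47 and 157 bp from the region's centre in 1,25(OH)2D3 replicates 1, 2 and 3 and at -69 bp in vehicle replicate 3, whereas the median spread over regions in all 3 1,25(OH)2D3 libraries and some vehicle libraries was 107 bp. The regions closest to the 50 kb limit were single-library peaks: for Trpm6 the last one inside was 38.8 kb and the first outside 59.6 kb from the gene body, and for Cnnm4 38.5 and 54.2 kb. For Trpm7 they were 42.3 and 56.9 kb away, the second with a peak in 1 library of each treatment.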
